A study of Mus musculus with 6 samples.

Results

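The circular RNAs (circRNAs) of Ghr, the mouse gene of the growth hormone receptor, were 13 of the 3869 circRNAs measured in differentiating brown preadipocytes. They were taken as every listed circRNA lying wholly within positions 3265000 to 3535000 of chromosome 15 on the minus strand (build mm9), the stretch given for Ghr, so the host gene comes from this position and not from the table, which names no genes. Beyond its position, the gene was selected on measured values: it was chosen by the CPM of its circRNAs at day 8 against day 0, where several were called higher. Levels in that contrast are therefore given as a description, and nothing is supported with them. On the same strand, the nearest listed circRNAs outside the stretch began at position 6786916 and belonged to another locus, so no circRNA lay close to its edges. The nearest one on the plus strand began at 3985260.

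The cells were stromal vascular cells of 6-week-old C57BL/6 mice, from a depot that the labels call inguinal brown fat. Day 0 cells were proliferating, before induction, day 4 cells had spent 4 days in an induction medium with insulin, dexamethasone and isobutylmethylxanthine, and day 8 cells had then been kept for 4 more days with insulin and T3, a thyroid hormone. Each day had 2 libraries, from RNA depleted of ribosomal and linear RNA. Separate cultures or animals are not stated for the libraries of a day, so p-values measure only the spread between these libraries, which may be technical. Genes of no other locus were named here, and the brown identity of the cells was not checked against markers.

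Growth hormone binds its receptor at the cell surface, and the paired receptors activate the kinase JAK2, which phosphorylates STAT5, a transcription factor with Igf1 and Socs2 among its targets. In fat, growth hormone is known for promoting the breakdown of stored lipid. A circRNA forms when the splice site at the downstream end of an exon is joined back to the upstream end of the same or an earlier exon. It carries no cap or poly(A) tail and is counted from the reads that cross this back-splice junction.

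Most ends of the Ghr circRNAs were matched to exons of the gene. The exons were labelled by distance alone, without converting any position between builds: the stretch between the 2 ends of each circRNA was compared with the distances between all upstream and downstream exon ends of Ghr in GENCODE M21 (GRCm38, gene ENSMUSG00000055737.12). Of the 13 circRNAs, 11 had a distance equal to the base to that of exactly 1 of the 414 pairs of exon ends. Among the 3856 other circRNAs of the table, 25 (0.648%) had a distance found among these pairs. In the 11-exon transcript Ghr-201, which encodes the full receptor, 9 circRNAs began and ended at exons 2 to 9. Exon 2 holds the start codon and encodes the signal peptide, exons 3 to 8 encode the part outside the cell that binds the hormone, and exon 9 encodes the transmembrane segment. None of these 9 ended at exon 10, which with exon 11 encodes the cytoplasmic part that carries the JAK2 binding site. A start at exon 1 or an end at exon 11 was not possible, since the first and last exons lack the splice site needed. Another 2 circRNAs joined exon 2 or exon 3 of Ghr-201 back to an exon of the short transcript Ghr-205, which lies upstream of exon 2. The remaining 2 shared 1 end with exon 2 and had another end that was not labelled.

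The junctions are shown to make the shared ends visible, since circRNAs with the same upstream end share the capital letters of their junction. Each sequence was joined from the Ghr-201 exons of GENCODE M21 (GRCm38) and was not read from the libraries. It gives the last 15 bases of the downstream exon in lower case and the first 15 bases of the upstream exon in capitals.
Exon 8 to exon 2: aagcatgtgaagaagGTCTCAGGTATGGAT
Exon 7 to exon 2: tcaaaatggaaagtgGTCTCAGGTATGGAT
Exon 6 to exon 2: ctgttgacgaaatagGTCTCAGGTATGGAT
Exon 3 to exon 2: caagcctggggacaaGTCTCAGGTATGGAT
Exon 6 to exon 4: ctgttgacgaaatagGTTCTTCTGGAAAGC
Exon 8 to exon 4: aagcatgtgaagaagGTTCTTCTGGAAAGC
The first 4 carry the same start of exon 2. The last pair has the lower-case letters of the exon 6 to exon 2 and exon 8 to exon 2 junctions in front of the start of exon 4.

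The 13 circRNAs used 7 upstream and 7 downstream ends, and the ends of 1 kind lay at least 2076 bp apart. The upstream end of exon 2 (position 3408008) was shared by 5 circRNAs and that of exon 4 (3297601) by 3, while the other 5 upstream ends were used once. On the downstream side, the end of exon 6 (3290919) was used by 3 circRNAs, and those of exons 2, 3, 7 and 8 by 2 each. The genomic stretches ran from 6683 to 163038 bp with a median of 47795 bp, against a median of 7871 bp in the whole table, and 6 of the 13 (46.2%) spanned at least 50 kb, against 218 of 3869 (5.63%). None of the 13 was in circBase, the public circRNA catalogue, whereas 2442 of all 3869 (63.1%) were. Overlapping circRNAs on 1 strand formed 2511 loci in the table, of which 1801 held 1 circRNA and 4, Ghr included, held 13 or more. If all Ghr-201 exons between the ends are kept, which the table does not show, the spliced circles would be between 145 nt (exons 2 and 3) and 820 nt (exons 2 to 8) long.

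**Figure D1:**
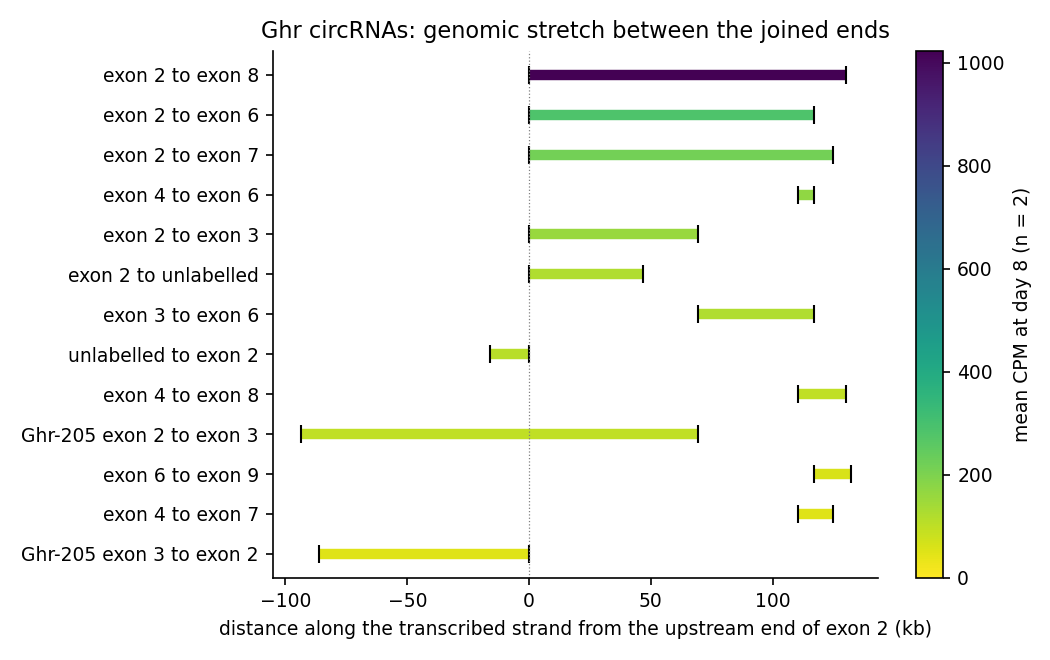
Each bar is 1 of the 13 Ghr circRNAs, drawn to scale between its joined ends as distance in kb from the upstream end of exon 2, with its colour giving the mean CPM of the 2 day 8 libraries. The bars starting at 0 are the 5 circRNAs that share the upstream end of exon 2, and the longest of them, exon 2 to exon 8, had the highest mean at day 8.

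Values are CPM, back-splice reads scaled to a common total of 1000000 over the listed circRNAs, as deposited. In each library they were whole multiples of 1 step, taken here as 1 read, and no circRNA had a value of 1 read. The libraries held 40384 to 45733 inferred reads, 1 read was worth 21.9 to 24.8 CPM, and a value of 0 may hide 1 read. Each listed circRNA was detected in both libraries of some day, a selection seen in the values. Of the 13 Ghr circRNAs, 11 met it through day 8 alone, as did 696 of 3869 (18.0%) in the table. Each of these 11 was at 0 in at least 1 library of day 0 and of day 4, which favours a higher value at day 8, and a Ghr circRNA seen in 1 library of an earlier day, and not in both of day 8, is not listed. Counts over the 13 circRNAs are therefore descriptions and no sign of a rise.

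Summed over the 13 circRNAs, Ghr was lower at days 0 and 4 than at day 8. Of the 13, 11 were listed through day 8 alone, which favours this order. The sum was 209 and 508 CPM in the day 0 libraries, 328 and 396 CPM in the day 4 libraries, and 2401 and 2700 CPM in the day 8 libraries. Behind these stood 9 and 21 reads in the day 0 libraries, 15 and 16 in those of day 4, and 98 and 114 in those of day 8. Both day 8 libraries lay far above the other 4, and the day 4 values lay between those of day 0. The means were 359 ± 212, 362 ± 48.2 and 2551 ± 212 CPM (SD, n = 2). In the order of all 2511 locus sums, Ghr was number 611 before induction, number 584 at day 4 and number 55 at the end. The day 8 mean was 7.11 times that of day 0. In these bulk samples, more cells making the circRNAs and more circRNA per cell cannot be told apart. The linear Ghr mRNA was not measured, so a change of the circRNAs relative to it was not tested.

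**Figure D2:**
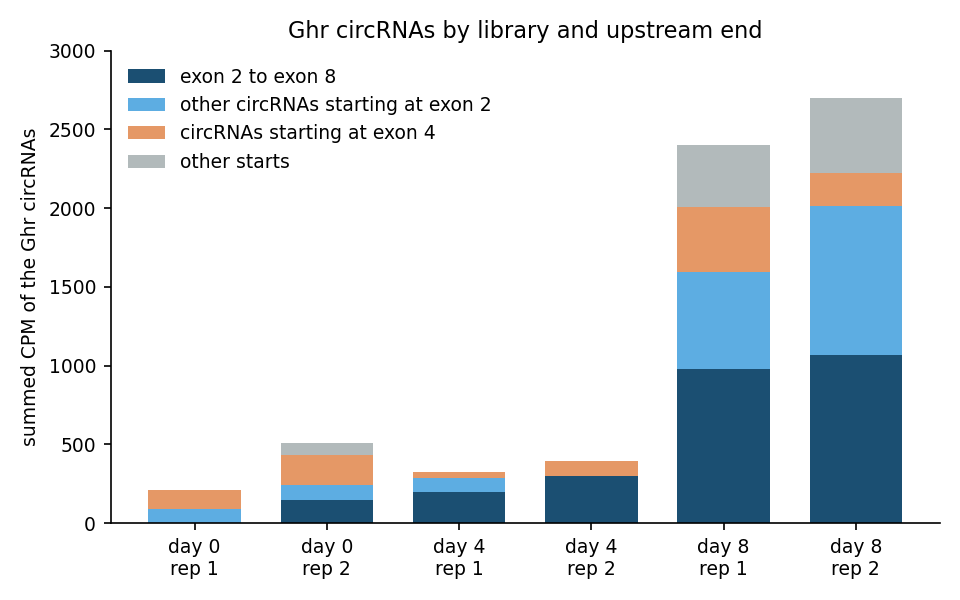
Bars give the summed CPM of the Ghr circRNAs in each of the 6 libraries, divided by upstream end. The day 8 libraries reach 2401 and 2700 CPM, and no earlier library exceeds 508 CPM.

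Between day 0 and day 4 the cells were in the induction medium. The Ghr sum showed no change past the test, with a log2 fold change of 0.16 (SE 0.41, limma adjusted p = 0.890 over all locus sums), on a scale of log2(CPM + 43.7). The direction rested on 1 library, since the log2 fold change was -0.40 without day 0 replicate 1 (adjusted p = 0.475). No Ghr circRNA was called in either direction at an adjusted p under 0.05, and none had an unadjusted p under 0.05, beside 8.17% of all circRNAs called by limma. Of the 13, 6 were at 0 in every library of days 0 and 4 and could not be called. The missing calls are therefore no sign of a steady level. The sum rested on 9 to 21 reads per library on these days.

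Between day 4 and day 8 the cells matured with insulin and T3. The sum averaged 2551 ± 212 CPM in the day 8 libraries, against 362 ± 48.2 CPM in those of day 4 (SD, n = 2), a ratio of 7.04. The log2 fold change was 2.73 (SE 0.41, limma adjusted p = 0.0105), beside a median of 0.13 over all locus sums, and Ghr was number 21 of 2511 in this order. Of all locus sums, 6.49% were called higher. The day 8 libraries and the day 8 listing also led to the choice of the gene, so this p supports nothing beyond the description. It was past the threshold in no fit that left out a library of either day, with an adjusted p of 0.10 when day 4 replicate 1 was missing, 0.0997 for day 4 replicate 2, 0.262 for day 8 replicate 1 and 0.255 for day 8 replicate 2, while the log2 fold change lay between 2.64 and 2.83. Each of these fits keeps 1 library of a day, which is assumed to vary like the other days, so a call missing there is no sign of a smaller change.

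**Figure D3:**
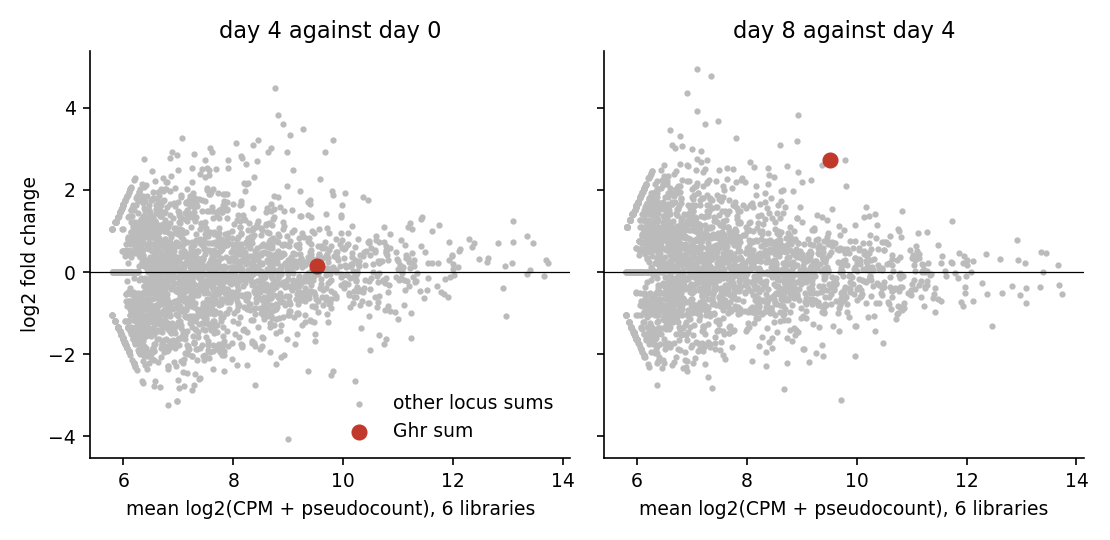
Each point is 1 of 2511 locus sums, with its mean log2(CPM + pseudocount) over the 6 libraries on the x axis and its log2 fold change on the y axis, and the red point is Ghr. Ghr lies at 0.16 for day 4 against day 0 and at 2.73 for day 8 against day 4.

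The most abundant Ghr circRNA joined exon 8 back to exon 2 (3277974 to 3408008), a circle over the start codon, the signal peptide and the hormone-binding part. It had 0 and 145 CPM in the day 0 libraries, 197 and 297 CPM in the day 4 libraries, and 980 and 1066 CPM in the day 8 libraries. Both day 8 libraries lay above both day 4 libraries, and these above both day 0 libraries. It was the only 1 of the 13 to reach 10 reads in 2 or more libraries, as 35.4% of the table did, and it was listed through day 4 as well as day 8. For day 4 against day 0 the log2 fold change was 1.66 (SE 0.71, limma adjusted p = 0.252), and for day 8 against day 4 it was 1.94 (SE 0.71, limma adjusted p = 0.189), so neither step passed the test. The second step did pass it, at nearly the same size, in a fit of the 4 libraries of both days (limma adjusted p = 0.0212) and in the fits lacking the first day 0 library (0.0399) or the second (0.0445). In the other alternatives the limma adjusted p was between 0.154 and 0.802. The day 8 libraries also led to the choice of the gene, so no p for the second step supports anything beyond the description. The mean share of this circRNA in the Ghr sum was 14.3% ± 20.2 before induction, 67.5% ± 10.6 at day 4 and 40.1% ± 0.949 at day 8 (SD, n = 2).

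Without the exon 2 to exon 8 circRNA, a subset formed after the values were seen and so given without a p, the other 12 summed to 209 and 363 CPM before induction, 131 and 99.0 CPM at day 4, and 1421 and 1634 CPM at day 8. The day 4 values lay below both day 0 values, and the log2 fold change of day 4 against day 0 was -0.98 (SE 0.37). For day 8 against day 4 the means of these 12 stood at 1528 ± 151 and 115 ± 22.7 CPM (SD, n = 2), the day 4 value resting on 10 reads in all. Of these 12, 11 were listed through day 8 alone, which favours this order, so the difference is only a description.

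Another 4 circRNAs shared the upstream end of exon 2. The exon 2 to exon 6 circRNA (3290919 to 3408008) had 92.8 and 0 CPM before induction, 87.5 and 0 CPM at day 4, and 98.0 and 474 CPM at day 8. Its high day 8 mean came from 1 library, since day 8 replicate 1 was close to the non-zero values of the earlier days. The exon 2 to exon 7 circRNA (3283347 to 3408008) was at 0 in each earlier library and had 220 and 213 CPM, 9 reads each, at day 8. The exon 2 to exon 3 circRNA (3338648 to 3408008), which ends before the exons of the hormone-binding core, had 0 and 96.9 CPM before induction, 0 in both day 4 libraries, and 196 and 118 CPM at day 8. The last (3361312 to 3408008) ended downstream at the position that was not labelled and was seen at day 8 alone, with 98.0 and 142 CPM. In the last 3 of these, each listed through day 8 alone, which favours this order, both day 8 libraries lay above all 4 earlier libraries, as in 14.6% of all circRNAs.

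The 3 circRNAs starting at exon 4, which lack the start codon, did not share 1 course. The exon 4 to exon 6 circRNA (3290919 to 3297601), the shortest stretch at 6683 bp, was already present in the proliferating cells, with 116 and 48.4 CPM before induction, 43.7 and 0 CPM at day 4, and 220 and 118 CPM at day 8. It was the only Ghr circRNA above 0 in both day 0 libraries, and its lower day 8 value, 118 CPM, was close to its higher day 0 value of 116 CPM. The exon 4 to exon 7 circRNA (3283347 to 3297601) had its highest value before induction, with 0 and 145 CPM before induction, 0 and 49.5 CPM at day 4, and 49.0 and 47.4 CPM at day 8. It was the only 1 of the 13 whose day 8 and day 0 CPM overlapped. The exon 4 to exon 8 circRNA (3277974 to 3297601) was at 0 in both day 0 libraries, had 0 and 49.5 CPM at day 4, and 147 and 47.4 CPM at day 8, where 1 library held 2 reads. None of these 3 was called for day 4 against day 0 (limma adjusted p from 0.518 to 0.758) or for day 8 against day 4 (0.257 to 0.743).

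The other 5 circRNAs started elsewhere and were rare. Each was listed through day 8 alone, which favours a higher value at day 8. The exon 3 to exon 6 circRNA had 0 and 72.6 CPM before induction, none at day 4, and 98.0 and 142 CPM at day 8. Like 5.48% of all circRNAs, the remaining 4 were at 0 in every library before day 8 and above 0 in both day 8 libraries. They had 2 to 5 reads in each day 8 library. They were the circRNA ending at exon 2 with an unlabelled start (3407930 to 3424199, 122 and 94.8 CPM at day 8), those starting at Ghr-205 exon 2 (3338648 to 3501685, 73.5 and 118 CPM) and Ghr-205 exon 3 (3407930 to 3494233, 49.0 and 47.4 CPM), and exon 6 to exon 9 (3275898 to 3291091, 49.0 and 71.1 CPM). The last was the only circRNA to include exon 9 of Ghr-201, and the first 3 were the only ones to start upstream of exon 2.

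**Figure D4:**
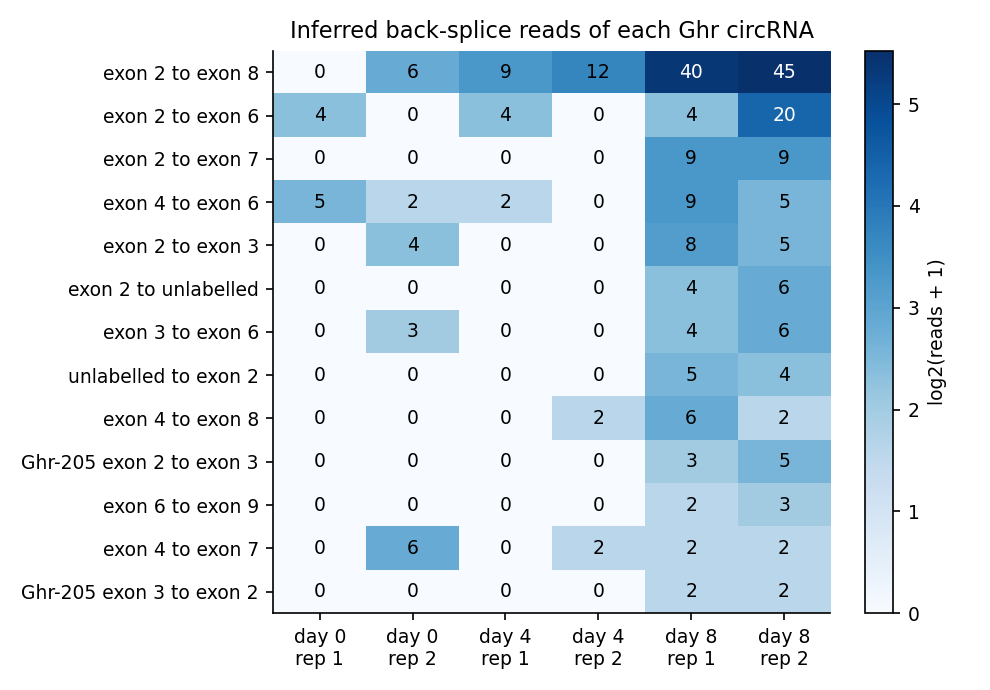
Rows are the 13 Ghr circRNAs in order of their mean CPM at day 8, columns the 6 libraries, and each cell gives the inferred reads, coloured by log2(reads + 1). All 13 have at least 2 reads in both day 8 libraries, while 6 have none in the 4 libraries of days 0 and 4, against 68.1% and 5.48% of all circRNAs.

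Counted over single circRNAs, limma called 6 of the 13 higher for day 8 against day 4, beside 6.05% of all circRNAs. All 6 were listed at 0 in the 4 earlier libraries and had 2 to 9 reads at day 8, and of all 234 circRNAs called higher in this comparison 216 were listed at 0 at day 4. The calls rest on rows of zeros with no spread and on the listing through day 8. The count was 0 (limma) without either library of day 4 or of day 8, where an unadjusted p under 0.05 was found for 7 of the 13 without either library of day 4, for 1 of the 7 tested without day 8 replicate 1, and for 3 of the 7 tested when day 8 replicate 2 was missing. For day 8 against day 0 the count was 7 of 13, beside 7.52% of all circRNAs, from which nothing is read since this contrast led to the choice. That count was at most 1 without either library of day 0 or of day 8. In CPM, both day 8 libraries lay above both day 4 libraries in 11 of the 13 (24.6% of all circRNAs) and above both day 0 libraries in 12 of the 13 (26.2%). Some of these were ties in reads. Exon 2 to exon 6 had 4 reads in replicate 1 of each day, and exon 4 to exon 6 had 5 reads in day 0 replicate 1 and in day 8 replicate 2. Of the 13, 11 were listed through day 8 alone, which favours this order.

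The 2 circRNAs that were listed through an earlier day as well, exon 2 to exon 8 and exon 4 to exon 6, did not need day 8 to be listed. They were picked after the values were seen, so no p is given for their sum. Together they had 116 and 194 CPM before induction, 241 and 297 CPM at day 4, and 1200 and 1184 CPM at day 8. The day 8 mean was 4.44 times that of day 4, against 14.6 times for the other 11, whose day 4 values rest on 8 reads in all. The log2 fold change of these 2 for day 8 against day 4 was 2.04 (SE 0.34). Both still belong to the gene chosen by its day 8 values, so this difference is a description and supports nothing further.

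The division of the reads over the shared ends is a measure apart from the level of the sum, though its precision depends on the reads. The upstream end of exon 2 took 44.4% and 47.6% of the Ghr CPM in the day 0 libraries, 86.7% and 75.0% in the day 4 libraries, and 66.3% and 74.6% in the day 8 libraries. Both day 0 libraries lay below all 4 later ones. Their exact 95% binomial intervals were wide, from 13.7% to 78.8% and from 25.7% to 70.2%, and overlapped those of the later libraries, which reached from 47.6% to 98.3% at day 4 and from 56.1% to 82.3% at day 8. These intervals treat reads as independent and cover counting error only. Exon 2 to exon 8 alone took 0% and 28.6% at day 0 and 60.0% and 75.0% at day 4. At day 8 it took 40.8% and 39.5%. None of the other circRNAs of the exon 2 end had a higher mean share at day 4 than at day 0. The upstream end of exon 4 took 55.6% and 38.1% at day 0, 13.3% and 25.0% at day 4, and 17.3% and 7.89% at day 8, with both day 0 libraries above the other 4. In day 0 replicate 1 and both day 4 libraries, no upstream end but those of exons 2 and 4 held reads. A lower share of exon 4 is there the same observation as a higher share of exon 2. No test of these shares was made, and an exact permutation test of 2 against 2 libraries cannot go below p = 0.333.

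The end of exon 8 took 0% and 28.6% at day 0, 60.0% and 87.5% at day 4, and 46.9% and 41.2% at day 8, so that the days did not overlap. Most of these reads came from the exon 2 to exon 8 circRNA, which is counted in the exon 2 end too. The shares of both ends are therefore not separate observations. The end of exon 6 took 100% and 23.8% at day 0, 40.0% and 0% at day 4, and 17.3% and 27.2% at day 8, and the 2 libraries of day 0, like those of day 4, differed widely. The listing affects these shares too, since ends used by circRNAs of days 0 and 4 alone may be missing.

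**Figure D5:**
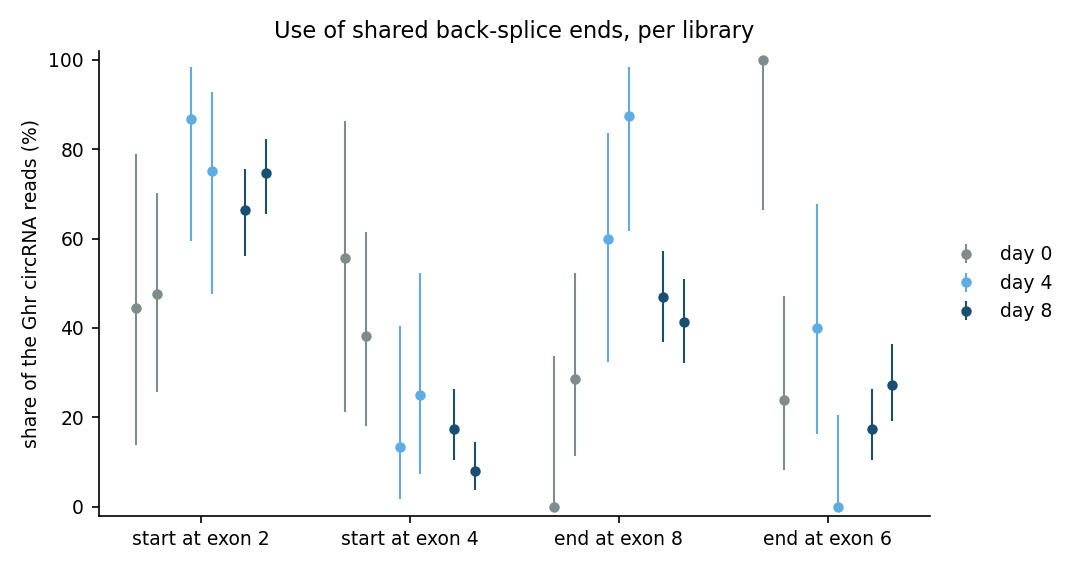
Points give the share of the Ghr circRNA reads of 1 library (%) that use a shared upstream end (start at exon 2 or 4) or downstream end (end at exon 8 or 6), with exact 95% binomial intervals. The share of exon 2 was 44.4% and 47.6% at day 0 and at least 66.3% in the later libraries, with intervals that overlap.

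The loci with the course most like the Ghr sum were sought among the 1139 other loci that reached 10 reads in 2 or more libraries, by Pearson's r of log2(CPM + 43.7) over the 6 libraries. The correlation is a description, and the libraries of a day share their differentiation stage. The highest r, 0.988, belonged to a locus of 1 circRNA without a circBase identifier on chromosome X (147043129 to 147048494, plus strand), with means of 36.3 ± 51.4, 24.8 ± 35.0 and 699 ± 16.6 CPM over the 3 days (SD, n = 2). The circRNA mmu_circ_0000635 on chromosome 15 (88641727 to 88642589, minus strand) followed with r = 0.986, from a higher level and with a smaller ratio between days, at 1818 ± 373, 2039 ± 117 and 3911 ± 265 CPM. The next 3 were loci on chromosome 10 (106385712 to 106425965, minus strand, r = 0.967), chromosome 15 (84001512 to 84016511, plus strand, r = 0.967) and chromosome 17 (36178394 to 36247080, minus strand, r = 0.964). All 5 had their highest mean at day 8, which their choice by likeness to the Ghr sum favours. For the exon 2 to exon 8 circRNA the highest r, 0.984, was that of a locus on chromosome 5 (100828366 to 100837132, minus strand), and none of the 5 loci most like it was among the 5 most like the sum.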

How the data were processed

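RNA depleted of ribosomal and linear RNA was sequenced from 6 libraries, 2 each at days 0, 4 and 8. HISAT2 2.2.0, FastQC 0.11.9 and build mm9 are named per the submitters' processing notes, which give no circRNA caller. The authors deposited CPM values, which sum to 1000000 per library over the listed circRNAs. The starts in the table count from 0 and are printed from 1.

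The smallest value of each library was taken as 2 reads, and all values were then whole reads within 2.52e-07 of a read. Libraries were scaled by trimmed means of M values, and the 6 libraries entered 1 fit on log2(CPM + 43.7) by limma 3.58.1 (R 4.3.3, trended variance), the pseudocount being the smallest non-zero value. This scale understates the change of low values. The Benjamini-Hochberg adjustment ran over all 3869 circRNAs or all 2511 locus sums (overlapping circRNAs of 1 strand added up), and a call needed an adjusted p under 0.05. The printed CPM values are unscaled.

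Every Ghr circRNA is described, and the loci most like the sum are the 5 with the highest Pearson's r. The members and lists were chosen with earlier results of these data known. Host genes were not looked up for other loci, because the annotation used (GRCm38) is of another build. A list of growth hormone pathway genes and cell type markers was therefore not analysed here. No pairing of the libraries by replicate number was seen, and the main fit used none.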

Additional observations from a re-analysis of the deposited data

How the results depend on the processing

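The log2 fold change of the Ghr sum for day 8 against day 4 kept its call under both other pseudocounts, both other scalings, the filter of 10 reads, a fit of the 4 libraries alone and the block, and lay between 2.64 and 2.83 with 1 library left out, when the call was lost in 4 of 6 cases. All these fits reuse the day 8 values and listing that led to the choice of the gene, so a kept call supports nothing further. For day 8 against day 0 the log2 fold change of the sum was 2.88, with 2.32 to 3.47 when 1 library was left out. It was 2.38 without the exon 2 to exon 8 circRNA, an alternative chosen after seeing the data. For day 4 against day 0 it turned to -0.98 without that circRNA, and lay between -0.40 and 0.74 with 1 library left out. The cause was not tested. The number of Ghr circRNAs called higher was 0 of 1 tested for day 8 against day 4 (limma, 1 at an unadjusted p under 0.05) and 1 of 1 for day 8 against day 0 under the filter of 10 reads, a filter that leaves 1 Ghr circRNA. Leaving out 1 library gave 0 to 9 and 0 to 6 calls. Among single circRNAs for day 4 against day 0, the log2 fold change of exon 2 to exon 6 was 0.014, but -0.027 with size factors, -0.029 without scaling, -0.0082 with 4 libraries and -0.80 to 0.82 with 1 library left out. That of exon 4 to exon 7 was -0.51, with -1.54 to 0.53 when 1 library was left out. None was called. By Spearman's rho, 0 of the 5 loci most like the sum and 1 of the 5 most like the exon 2 to exon 8 circRNA stayed among the first 5.

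The correlation between days of the deviations of same-numbered libraries lay between -0.0136 and -0.0067, so the numbers pair nothing. With a replicate block the log2 fold changes of the sum were 0.16, 2.73 and 2.88, and the block changed no call. The share of exon 2 did not change with ends within 5 bases taken as shared, since no 2 ends were that close. With summed reads it moved by less than its spread. With 1 library left out, the share is the value of the other library of that day. Such a move is smaller than the spread for any 2 values, so it tests nothing. These values were 44.4% and 47.6% at day 0, 75.0% and 86.7% at day 4, and 66.3% and 74.6% at day 8. The planned count test on recovered reads was not run, because the values start at 2 reads.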
